A study of Mus musculus with 20 samples.

Results

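The miR-23, miR-27 and miR-24 family comes from 2 genomic clusters, called a and b, and 8 of its mature arms were followed while mouse embryonic stem cells (ESCs) were converted into epiblast stem cells (EpiSCs). The arms were chosen by name, as arms of these clusters listed in the microRNA (miRNA) tables of both lines, and they are 8 of the 1063 mature miRNAs that the tables share. Cluster a gives mmu-miR-23a-3p, mmu-miR-27a-3p and mmu-miR-24-2-5p. Cluster b gives mmu-miR-23b-3p, mmu-miR-27b-3p, mmu-miR-27b-5p and mmu-miR-24-1-5p. Both clusters give the same mmu-miR-24-3p. The prefix mmu, for mouse, is left out from here on. Small RNA was sequenced from a female line (PGK) and a male line (E14), so that each sex was 1 line and sex and line cannot be told apart. Day 0 cells were kept in 2i medium, in which inhibitors of Mek and Gsk3 hold naive pluripotency. The other cells were plated on fibronectin in an N2B27 medium that contained Activin A and Fgf2, were passaged with Accutase, and were collected at day 4, day 10, days 19 to 23 and days 27 to 30, the latter called late here. Days 19 to 23 stood for days 23 (replicate 2) and 21 (replicate 3) of the female cells and for days 21 and 19 of the male cells. Late was day 29 in both female experiments and days 27 and 30 in the male ones. Each of the 10 groups had 2 libraries, from the differentiation experiments diff2 (replicate 2) and diff3 (replicate 3), and the labels state no genetic change in either line. The p-values therefore measure the spread between 2 differentiation experiments, and every change from day 0 in a line uses the same day 0 libraries.

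A miRNA hairpin is cut by Drosha and Dicer into a 5p and a 3p arm, and the arm kept in Argonaute silences messenger RNAs that pair with its seed, bases 2 to 8. The hairpins of each miR-23/27/24 cluster lie close together and are known to be made from a common primary transcript. The family is known for roles in blood vessels, blood cells and fat cells, where miR-27 restrains adipocyte differentiation, and miR-27a and miR-24 have been linked to the exit of mouse ESCs from self-renewal. Naive ESCs are known for high miR-290 cluster levels and primed EpiSCs for high miR-302/367 levels.

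The mature sequences are shown because the a and b arms are near-copies, which bears on every comparison between them. They are from RefSeq (GRCm38.p6), 5′ to 3′, with the seed in capitals. RefSeq's table held 7 of the 8 arms, and miR-23b-3p is given by name.
miR-27a-3p: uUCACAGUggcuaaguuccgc
miR-27b-3p: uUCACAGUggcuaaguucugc
miR-23a-3p: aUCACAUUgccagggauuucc
miR-24-2-5p: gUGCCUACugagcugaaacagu
miR-24-1-5p: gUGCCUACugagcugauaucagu
miR-24-3p: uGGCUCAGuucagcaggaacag
miR-27b-5p: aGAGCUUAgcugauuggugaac
miR-27a-3p and miR-27b-3p share their seed and differ at 1 position of 21, C19U, counted from the 5′ end with the base of miR-27a-3p first. miR-24-2-5p (22 bases) and miR-24-1-5p (23 bases) share their seed and their first 16 bases, and differ only near the 3′ end. A read that stops before these positions cannot be assigned to 1 copy, and how the authors counted such reads is not given in the sources used here. Among the other miRNAs of the tables, miR-673-5p alone had the same bases 2 to 7 as a member, UCACAG of miR-27, and it differed at base 8. It reached 4699 CPM in its highest library.

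Cluster a lies at chr8:84208518-84208921 (GRCm38, plus strand), where Mir23a, Mir27a and Mir24-2 follow each other within 404 bases. Mir23a and Mir27a overlapped no other gene in GENCODE M21, and Mir24-2 overlapped an exon of the long noncoding RNA gene Gm26532. Cluster b lies at chr13:63300484-63301275 on the plus strand, where Mir23b, Mir27b and Mir24-1 span 792 bases within 2010111I01Rik, a gene on the same strand, and opposite Fancc, a Fanconi anaemia DNA repair gene on the minus strand. Mir23b overlapped no exon, Mir27b an exon in 1 of 10 overlapping transcripts and Mir24-1 an exon in 4 of 12. Each miR-24 hairpin also has a hairpin on the opposite strand, Mir3074-2 in cluster a and Mir3074-1 in cluster b.

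**Figure D1:**
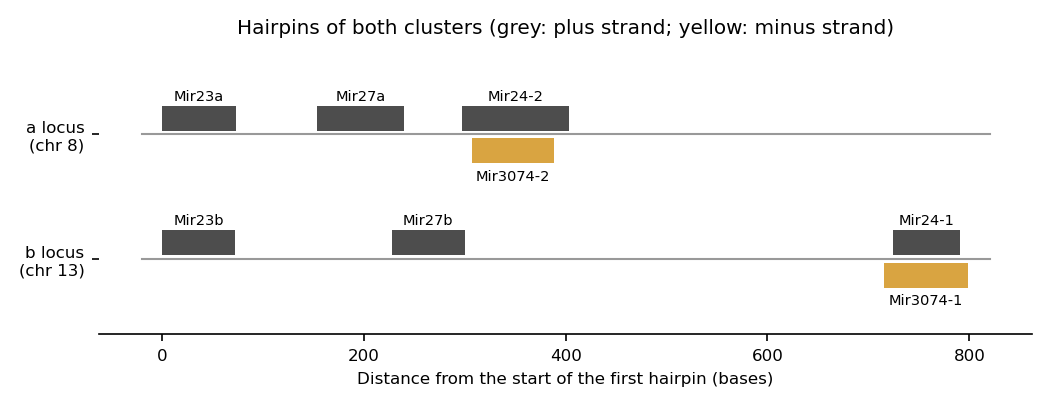
Positions of the hairpins in each cluster, in bases from the start of the first hairpin, with plus-strand hairpins in grey above the line and minus-strand hairpins in yellow below it. Cluster a spans 404 bases and cluster b 792 bases, and a Mir3074 hairpin overlaps each Mir24 hairpin.

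The libraries held 7112398 to 18031067 counts and 864 to 923 detected miRNAs, and all 8 arms passed the filter on low counts that kept 813 of 1063 miRNAs. Levels are in CPM, counts per 1000000 counts of library size after scaling by TMM, edgeR's correction for composition. In both lines the day 0 library of replicate 3 is labelled ESCs-EpiSCs as its cell type, like the differentiating samples, but its title and day label give day 0, so results that rest on it are also given without it. The cells' state followed the day labels: the summed 5 miR-302/367 markers were at 161 to 557 CPM at day 0 and at 8707 to 72061 CPM in all later libraries. The summed 5 miR-290 cluster markers were at 168350 to 247594 CPM at day 0 and at 68379 to 83177 CPM late.

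The family was a minor fraction of the miRNA counts, and most of that fraction was miR-27b-3p. Together the 8 arms took 2.38% ± 0.829 (SD, n = 2) of the female counts at day 0 and 1.58% ± 0.0626 late. Male libraries gave 4.14% ± 0.481 at day 0 and 1.89% ± 0.0148 late. miR-27b-3p ranked 10th of 1063 miRNAs by its mean share of the counts and made up 93.6% of the family's counts in female and 95.3% in male day 0 cells. Late, its part was 78.7% (female) and 88.1% (male). miR-27a-3p ranked 94th, and the other arms between 205th and 548th.

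The question the time course addresses is how the family's levels move as naive cells become primed. Against day 0, the main b arms, miR-23b-3p and miR-27b-3p, fell at all 4 later stages in both lines. Of the a arms, miR-24-2-5p rose late in both lines and miR-27a-3p rose in the female line, and miR-24-3p was called lower at day 4 in both lines. In male cells its later libraries also lay below day 0, but those changes did not pass. Counts of the miR-24 arms cannot be told apart from those of the antisense miR-3074 arms, as given below.

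In the female line at day 4, 4 of the 8 arms were called lower (adjusted p under 0.05, Benjamini-Hochberg) and 0 higher, beside 14.6% and 24.5% of all 813 tested miRNAs. At female day 10 the calls were 2 lower and 1 higher, beside 18.8% and 21.3% of all. At days 19 to 23 they were 2 lower and 0 higher, beside 19.3% and 21.2%. Late female cells had 2 lower and 2 higher, beside 19.4% and 24.1%. At male day 4, 5 arms were called lower and 0 higher, beside 18.3% and 25.1% of all. Male day 10 gave 4 lower and 1 higher, beside 17.0% and 16.7%. Days 19 to 23 gave 3 lower and 1 higher, beside 18.5% and 15.9%. Late male cells had 3 lower and 1 higher, beside 21.2% and 19.6%. The median log2 change of the 8 arms lay between -1.17 (male day 4) and -0.02 (female day 10), beside -0.04 to 0.09 over all tested miRNAs. With members this few, 1 arm more or less moves the share by over 10 percentage points, and the counts are a description.

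**Figure D2:**
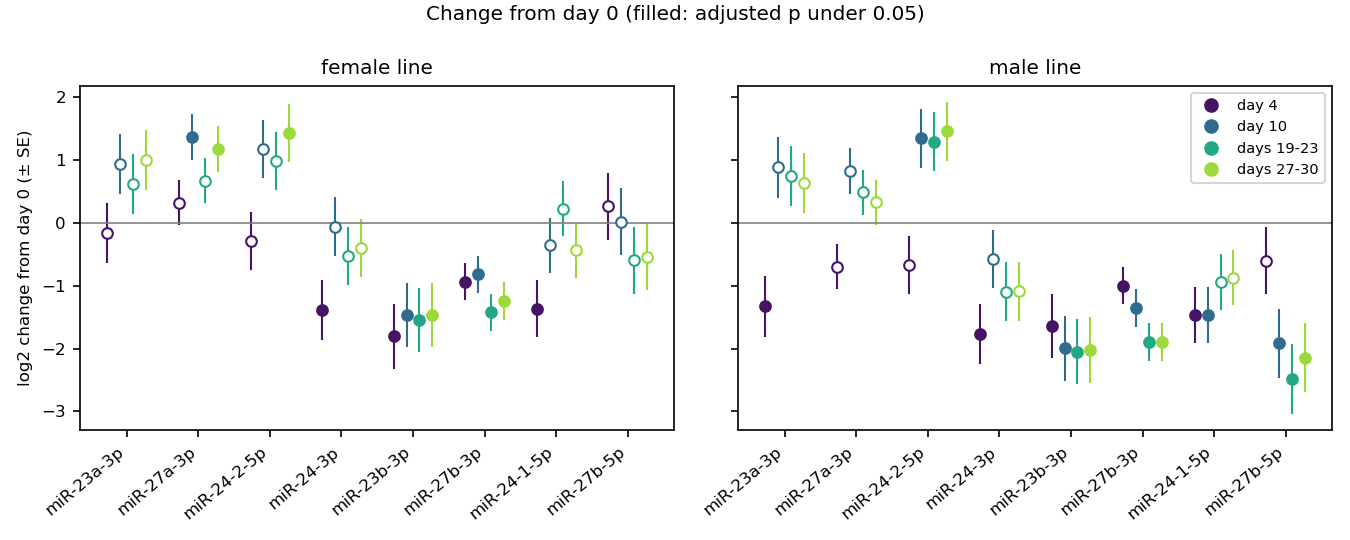
Log2 change from day 0 for each arm (x axis) at each later stage (colour) in the female line (left) and the male line (right), with the standard error as bars and filled points where the adjusted p was under 0.05. miR-23b-3p and miR-27b-3p have 4 filled points below 0 in each line, and the filled points above 0 belong to miR-27a-3p and miR-24-2-5p.

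miR-27b-3p, the most abundant arm, was lower than day 0 at every later stage in both lines. Its female libraries were at 20268 and 32309 CPM at day 0 (replicates 2 and 3 in turn, as in all pairs of values here), 15890.1 and 11584 at day 4, 17869 and 12012 at day 10, 9904 and 9673 at days 19 to 23, and then 11769 and 10399 late. The male libraries were at 45061 and 47727, 25946 and 20362, 20843 and 15464, 12546 and 12269 and 12331 and 12527 CPM at the same stages. Every later library lay below both day 0 libraries of its line, and the male day 0 pair was the highest of the 20 libraries. The female log2 change was -0.94 ± 0.30, adjusted p = 0.0208 at day 4, -0.82 ± 0.29 (adjusted p = 0.0386) at day 10, -1.43 ± 0.30 (0.00134) at days 19 to 23, and then -1.25 ± 0.30 (0.00328) late. The male log2 change went from -1.003 ± 0.30 (adjusted p = 0.0133) at day 4 to -1.90 ± 0.30 (0.000244) late, a 3.73-fold lower level. The male calls and the female calls at days 19 to 23 and late held without any 1 of the 20 libraries. The female day 4 call was lost without female day 4 replicate 3 (-0.73, adjusted p = 0.163), and the female day 10 call without any 1 of 5 libraries (female day 0 replicate 3, female day 10 replicate 3, female days 19 to 23 replicate 3 and both male late libraries; -0.79 to -0.58).

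miR-23b-3p, made from the first hairpin of cluster b, was also lower at all later stages, and its size rested on day 0 replicate 3. In female cells it was at 189 and 674 CPM at day 0, 121 and 127 at day 4, 139 and 174 at day 10, 141.9 and 153 at days 19 to 23, and then 158 and 153 late. Male cells had 434 and 1125, 222 and 279.8, 217 and 173, 193 and 184 and 183 and 201 CPM. All later libraries lay below both day 0 libraries of their line, but at day 0 replicate 3 was 3.58 times (female) and 2.59 times (male) replicate 2. Log2 changes were -1.80 ± 0.51, adjusted p = 0.0123 at female day 4 and -1.47 ± 0.51, adjusted p = 0.0296 in late female cells. They were -1.64 ± 0.51, adjusted p = 0.0181 at male day 4 and -2.02 ± 0.52, adjusted p = 0.00726 in late male cells. Without day 0 replicate 3 of the line the calls were lost at all 4 stages, at -1.001 to -0.40 (female) and -1.32 to -1.04 (male). The female calls were also lost without either library of the later stage itself (-1.84 to -1.31), except that at day 4 replicate 2 did not end it, and the male calls at days 4 and 10 without male day 4 replicate 2 (-1.72) and male day 10 replicate 3 (-1.98). Within each experiment, both miR-23b-3p and miR-27b-3p were below the day 0 library of the same line in 8 of 8 comparisons in replicate 2 and 8 of 8 in replicate 3.

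miR-27b-5p, the other arm of the Mir27b hairpin, was far scarcer than miR-27b-3p and fell in the male line. Male libraries held 502 and 256 CPM at day 0, 381 and 117 at day 4, 136 and 65.3 at day 10, 70.1 and 65.5 at days 19 to 23, and then 98.4 and 73.1 late. Female libraries held 112 and 125, 187 and 97.8, 144 and 95.5, 71.7 and 85.1 and 83.99 and 78.9 CPM. Male libraries from day 10 on lay below both male day 0 libraries, and female day 4 and day 10 libraries overlapped day 0. The male log2 change was -1.91 ± 0.55, adjusted p = 0.0155 at day 10, -2.48 ± 0.56, adjusted p = 0.00334 at days 19 to 23, and then -2.14 ± 0.55, adjusted p = 0.00738 late. The female changes ran from -0.59 to 0.26 and did not pass the test. The male day 10 call was lost without male day 0 replicate 2 (-1.46) or male day 10 replicate 3 (-1.59), and the late call without late replicate 3 (-1.97).

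miR-24-1-5p, the scarce 5p arm of the Mir24-1 hairpin, had 21 to 240 counts a library. Female levels were 6.19 and 11.9 CPM at day 0, 4.62 and 2.37 at day 4, 4.79 and 9.28 at day 10, 11.5 and 9.59 at days 19 to 23, and then 7.13 and 6.20 late. Male levels were 12.6 and 17.3, 5.02 and 5.78, 5.19 and 5.61, 8.04 and 7.54 and 7.98 and 8.35 CPM. All male later libraries and the female day 4 libraries lay below day 0. It fell at female day 4 (-1.36 ± 0.46, adjusted p = 0.0276), male day 4 (-1.47 ± 0.45, adjusted p = 0.0163) and male day 10 (-1.47 ± 0.45, adjusted p = 0.0208), and did not pass the test at the other stages. These calls were lost without female day 0 replicate 3 (-1.25) or female day 4 replicate 3 (-0.96), without male day 4 replicate 2 (-1.59), and without male day 0 replicate 3 or either male day 10 library (-1.65 to -1.27).

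**Figure D3:**
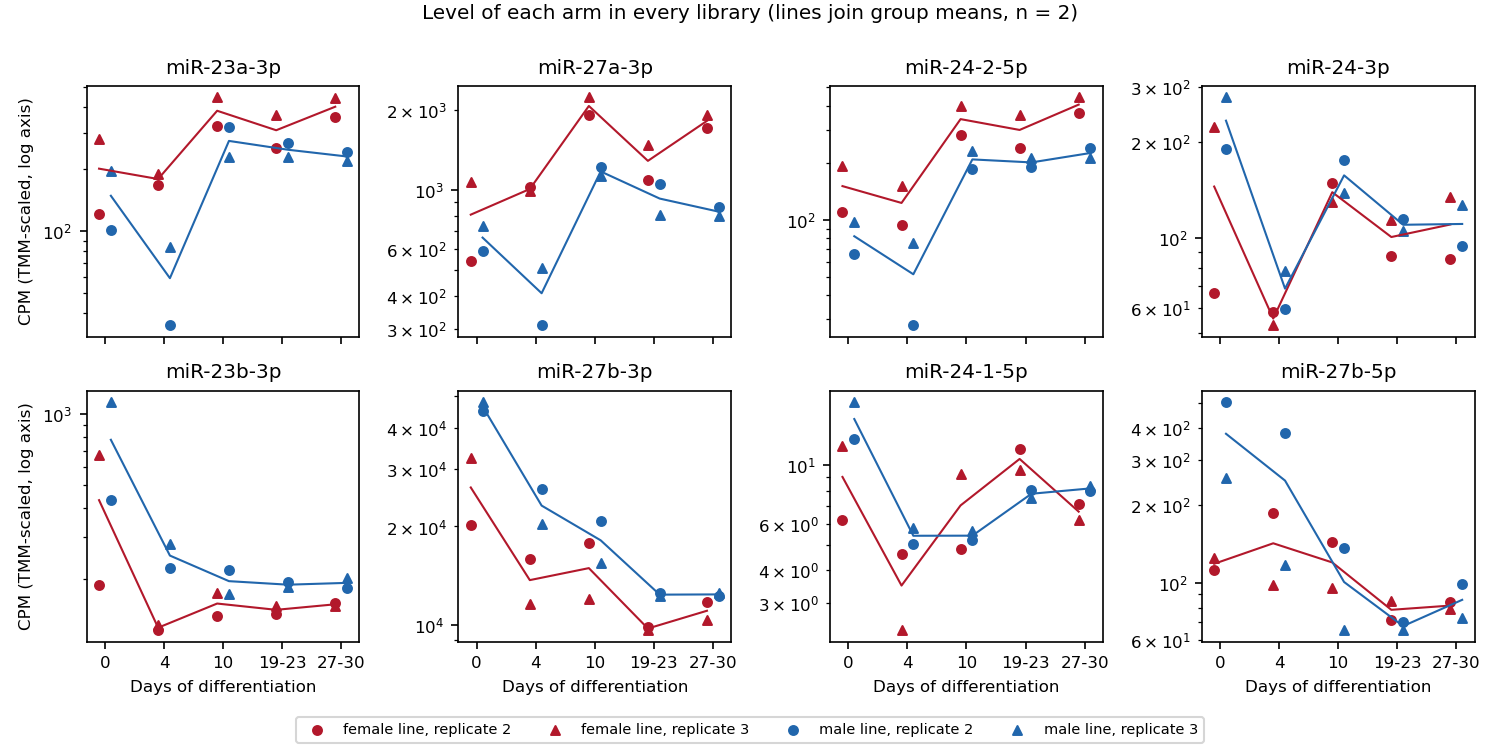
Level of each arm in CPM (log axis) against the stage in days, for the female line (red) and the male line (blue), with 1 point per library (circle, replicate 2; triangle, replicate 3) and lines through the means of 2. The b arms miR-23b-3p and miR-27b-3p start highest at day 0 and stay lower, miR-24-3p dips at day 4, and the a arms are at their lowest at days 0 and 4 in the male line.

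miR-27a-3p, the abundant arm of cluster a, rose in the female line. Its female libraries held 542 and 1073 CPM at day 0, 1028 and 989 at day 4, 1911 and 2231 at day 10, 1094 and 1479.8 at days 19 to 23, and then 1717 and 1923 late. Its male libraries held 590.2 and 733, 309.7 and 508, 1218 and 1130.3, 1049 and 807 and 860.2 and 797 CPM. From day 10 on every library lay above both day 0 libraries of its line, while male day 4 lay below them. The female log2 change was 1.36 ± 0.37, adjusted p = 0.00855 at day 10 and 1.17 ± 0.36, adjusted p = 0.0166 late. The male change was -0.70 ± 0.36 at day 4 (adjusted p = 0.134), 0.83 ± 0.36 at day 10 (0.0915) and 0.32 ± 0.36 late (0.505). The female calls were lost without day 0 replicate 2 (0.998 at day 10 and 0.78 late), without day 10 replicate 3 (1.18) and without late replicate 3 (1.02). The male day 4 value passed the test with RLE scaling (-0.94, adjusted p = 0.0472) and with DESeq2 (-0.94, 0.0301).

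miR-24-2-5p, the 5p arm of the Mir24-2 hairpin, rose late in both lines. Female levels ran from 109.9 and 192 CPM at day 0 through 94.4 and 152 at day 4, 281 and 399 at day 10 and 239 and 358 at days 19 to 23 to 369 and 443 late. Male levels ran from 66.3 and 97.8 CPM through 27.8 and 75.6, 186 and 231 and 191 and 211 to 239 and 212. All libraries from day 10 on lay above both day 0 libraries of their line. The log2 change was 1.43 ± 0.47, adjusted p = 0.0224 in late female cells, a 2.69-fold higher level. In the male line it was 1.35 ± 0.47, adjusted p = 0.0382 at day 10, 1.29 ± 0.47, adjusted p = 0.0439 at days 19 to 23, and then 1.46 ± 0.47, adjusted p = 0.023 late. With the replicate as a block, female day 10 (1.20, adjusted p = 0.0147) and days 19 to 23 (1.003, 0.0334) also passed, beside 0.0571 and 0.101 without it. Female day 10 also passed with DESeq2 (1.15, 0.0466) and with a mean of at least 10 CPM (1.23, 0.0479). The male calls at day 10 and days 19 to 23 were lost with each line fitted alone (1.29 and 1.24, adjusted p = 0.0776 and 0.0903). They were also lost without both replicate 3 day 0 libraries (1.71 and 1.69, adjusted p = 0.0553 and 0.052). The male calls were fragile: leaving out any 1 of 15 libraries ended that at day 10 and any 1 of 14 that at days 19 to 23, at log2 changes that stayed between 1.0004 and 1.61. For male day 10 the exceptions were both day 4 pairs and female days 19 to 23 replicate 3, and for male days 19 to 23 they were both day 4 pairs, female day 0 replicate 2 and male day 10 replicate 2. Any 1 of 10 libraries ended the late male call (all male day 0, days 19 to 23 and late libraries, both female late libraries and day 10 replicate 3 of each line; 1.16 to 1.67), and female day 0 replicate 2 or either late library the female one (1.10 to 1.54).

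miR-23a-3p, the first arm of cluster a, was lower at male day 4 and passed the test at no other stage. Female levels were 121 and 282 CPM at day 0, 168 and 191 at day 4, 323 and 447 at day 10, 254 and 365 at days 19 to 23, and then 361 and 444 late. Male levels were 102 and 196, 35.02 and 83.5, 321 and 229, 267 and 231 and 242 and 219 CPM. Male libraries from day 10 on lay above both male day 0 libraries and those of day 4 below them, while the female day 4 pair lay between its day 0 libraries. The log2 change was -1.33 ± 0.49, adjusted p = 0.039 at male day 4, and it was 0.999 ± 0.48, adjusted p = 0.106 in late female and 0.63 ± 0.48, adjusted p = 0.315 in late male cells. The male day 4 call was lost without male day 0 replicate 3 (-1.02) or male day 4 replicate 2 (-1.07). Without both day 0 libraries of replicate 3, the late female value was 1.52 (adjusted p = 0.0365).

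miR-24-3p, which both clusters encode, dipped at day 4. Female libraries held 66.6 and 223 CPM at day 0, 58.03 and 52.8 at day 4, 148 and 129.9 at day 10, 87.3 and 113 at days 19 to 23, and then 85.6 and 134 late. Male libraries held 191 and 278, 59.2 and 78.6, 176 and 139, 115 and 105 and 94.1 and 127 CPM. The female day 4 pair and male day 4 replicate 2 were the lowest of the 20 libraries, female day 0 replicate 2 came next, and all male later libraries lay below male day 0. The log2 change at day 4 was -1.39 ± 0.47, adjusted p = 0.03 (female) and -1.77 ± 0.48, adjusted p = 0.00847 (male). Late it was -0.40 ± 0.46, adjusted p = 0.513 (female) and -1.09 ± 0.47, adjusted p = 0.0774 (male), and at male days 19 to 23 it was -1.09 ± 0.47, adjusted p = 0.0849. With each line fitted alone, male days 19 to 23 (-1.16, adjusted p = 0.0433) and late (-1.09, 0.0454) passed. The female day 4 call was lost without day 0 replicate 3 (-0.67, adjusted p = 0.240) or either day 4 library (-1.58 and -1.32), and the male one held without any 1 of the 20 libraries. At day 0, female replicate 3 was 3.35 times replicate 2.

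Some of these calls also depended on the scaling. With the plain library total in place of TMM, the median log2 change of all miRNAs from day 0 lay between -0.20 and 0.71, and the miR-23b-3p calls were lost at female day 10, days 19 to 23 and late and at male days 19 to 23 and late (-1.39 to -1.03). So were those of miR-23a-3p at male day 4 (-1.24), miR-24-1-5p at male day 10 (-1.25) and miR-24-2-5p at male day 10 (1.59), while miR-27a-3p passed at days 19 to 23 in both lines (1.19 female, 1.18 male). miR-27b-3p kept every call with that scaling and lost female day 10 with no filter on low counts (-0.69). Without both replicate 3 day 0 libraries, the female calls of miR-23b-3p from day 10 on (-0.50 to -0.41), of miR-27b-3p at day 10 (-0.57) and of miR-24-3p and miR-24-1-5p at day 4 (-0.67 and -1.25) were lost. Male calls lost were those of miR-23a-3p at day 4 (-1.02) and miR-24-1-5p at day 10 (-1.17), beside the miR-24-2-5p calls above. Then miR-23a-3p passed at female day 10 (1.52) and miR-27a-3p at female days 19 to 23 (1.10).

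Marker lists of other cell types moved over the same stages. The 5 blood markers summed to 520 to 1546 CPM at day 0, 179 to 601 at day 4 and 22.5 to 55.1 from day 10 on, with miR-223-3p and miR-451a at or near 0 throughout. The 4 fibroblast and smooth muscle markers summed to 3221 to 8815 CPM at day 0, 350 to 2211 at day 4 and 398 to 3043 later, with miR-143-3p the most abundant at day 0. The sum hides members with another course: female miR-199a-3p was at 34.2 CPM ± 14.5 (SD, n = 2) at day 0 and 543 ± 75.8 late, and male at 233 ± 159 and 390 ± 383. miR-214-3p had 0 counts in every day 0 and day 4 library and was at 25.7 CPM ± 8.68 (female) and 24.9 ± 28.3 (male) late. At day 0 the summed fibroblast level was higher in replicate 2 than in replicate 3 (8815 and 3741 CPM in female, 6840 and 3221 in male cells). The summed blood level was lower in replicate 2 (909 and 1267 CPM in female, 520 and 1546 in male cells). That difference came from miR-150-5p, at 228 and 771 CPM in female and 354 and 1466 CPM in male cells. The miR-142 arms went the other way, with miR-142-5p at 596 and 447 CPM in female and 143 and 73.0 CPM in male cells. The 2 endothelial markers, miR-126-3p and miR-126-5p, summed to 269 to 1064 CPM over the 20 libraries. The 3 liver and endoderm markers summed to 1157 to 3623 CPM at day 0 and 313 to 972 later, with miR-122-5p at 0 to 0.0914 CPM. Summed muscle and heart markers (5) were at 40.04 to 188 CPM and neural markers (2) at 163 to 1735 CPM. By group mean, the endothelial sum rose from 279 (female) and 780 CPM (male) at day 0 to 797 and 1011 at day 4. The male libraries of these days overlapped, at 1032 and 528 CPM at day 0 and 1064 and 958 CPM at day 4. The neural sum rose too, from 209 and 261 CPM at day 0 to 821 and 1493 at day 4. Both sums were lower again late than at day 4. The 2 neural markers did not move together. At day 4, 1 of the 2 was called higher in each line, beside 24.5% (female) and 25.1% (male) of all tested miRNAs. In late male cells 1 was called higher and 1 lower than at day 0, beside 19.6% and 21.2% of all. Among muscle markers, miR-499-5p fell from 105 and 166 CPM at day 0 to 7.27 and 6.91 at day 4. In contrast, miR-208b-3p rose from 5.56 and 2.20 CPM at day 0 to 36.9 and 39.1 late. In these bulk samples fewer cells of a type and less RNA per cell cannot be told apart, and the part of these cell types in the family's changes was not tested.

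The balance between the near-copies moved toward cluster a. Because both counts of a ratio come from the same library, the ratio does not depend on library scaling. The share of miR-27a-3p in the counts of both miR-27 3p arms was 2.60 and 3.21% in female day 0 libraries, 6.07 and 7.87% at day 4, 9.66 and 15.7% at day 10, 9.95 and 13.3% at days 19 to 23, and then 12.7 and 15.6% late. In male libraries it was 1.29 and 1.51%, 1.18 and 2.43%, 5.52 and 6.81%, 7.72 and 6.17% and 6.52 and 5.98%. The female share was above both day 0 libraries in 8 of 8 later libraries and the male one in 7 of 8, male day 4 replicate 2 being below them.

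For miR-23a-3p among the miR-23 3p arms the female share was 39.1 and 29.5% at day 0, 58.2 and 60.1% at day 4 and 69.6 and 74.3% late, and the male share 19.04 and 14.8%, 13.6 and 22.98% and 56.99 and 52.2%. It too was above day 0 in 8 of 8 female and 7 of 8 male later libraries, with male day 4 replicate 2 below. miR-24-2-5p made up 94.7 and 94.2% of both miR-24 5p arms at female day 0 and 98.1 and 98.6% late, and 84.03 and 84.97% at male day 0, 84.7 and 92.9% at day 4 and 96.8 and 96.2% late. In both lines miR-23b-3p was the larger miR-23 count at day 0 and miR-23a-3p late, with the a copy already larger at female day 4 and at male day 10.

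The log2 ratio of a over b, later libraries minus day 0 (pseudocount 0.5), was 2.02 for miR-23 and 1.91 for miR-27 (both p = 0.00148, adjusted p = 0.00296, two-sided exact permutation test within lines, 2025 arrangements). For the miR-24 5p arms it was 1.65 (exact permutation p = 0.000988, adjusted p = 0.00296 over the 6 ratios tested). The counts of these 5p arms cannot be told apart from those of their antisense miR-3074 arms, as given below. The line values were 2.01 (female) and 2.04 (male) for miR-23, 2.04 and 1.78 for miR-27, and 1.30 and 2.00 for miR-24. The other 3 ratios compared arms of 1 cluster and did not pass: miR-23a-3p over miR-27a-3p -0.11 (adjusted p = 0.621, exact permutation), miR-23b-3p over miR-27b-3p -0.22 (0.471) and miR-27b-5p over miR-27b-3p 0.30 (0.427). These tests used the same counts as the changes above, and later libraries of different stages in 1 experiment are not independent cultures. With day 0 against late only, the 36 arrangements allow no p below 0.0556.

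**Figure D4:**
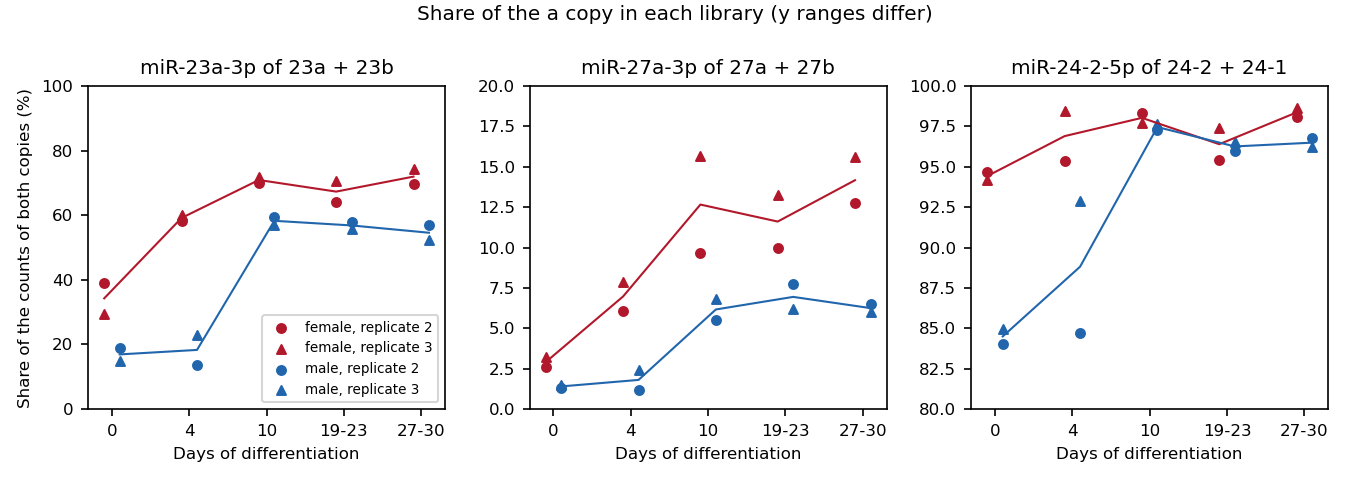
Share of the a copy in the counts of both near-copies (y axis, percent, with a different range in each panel) against the stage in days, for the female line (red) and the male line (blue), 1 point per library (circle, replicate 2; triangle, replicate 3) and lines through the means of 2. The miR-27a-3p share starts at 2.604% and 3.21% (female) and 1.29% and 1.51% (male), and male day 4 replicate 2 is not above the male day 0 pair in any panel.

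From day 4 to the late stage, which asks what moved after the first change of medium, miR-24-2-5p rose in both lines and miR-23a-3p rose in male cells. In the female line 1 arm was called higher, miR-24-2-5p (1.72 ± 0.47, adjusted p = 0.0295), beside 3.32% of all tested miRNAs. Among male changes 2 arms were called higher, miR-23a-3p (1.96 ± 0.50, adjusted p = 0.0238) and miR-24-2-5p (2.13 ± 0.48, adjusted p = 0.0179), beside 4.43%. No arm was called lower, beside 6.40% (female) and 5.54% (male), where edgeR gave unadjusted p under 0.05 for 213 and 258 miRNAs of all. With the replicate as a block 5 male arms passed: miR-27a-3p also rose (1.05, adjusted p = 0.0458), and miR-27b-3p (-0.89, 0.0388) and miR-27b-5p (-1.43, 0.0419) fell. miR-27a-3p passed in the male line with both other scalings, both other filters, DESeq2 and the line fitted alone (1.22 to 1.61), and was 1.02 (adjusted p = 0.076) as fitted. Female miR-23a-3p, miR-24-3p and miR-27a-3p rose with total-count scaling, with a mean of at least 10 CPM and without both replicate 3 day 0 libraries (1.04 to 1.85), and miR-24-1-5p with total-count scaling (1.71). As fitted, the miR-23a-3p and miR-24-2-5p calls in male cells were lost without male day 4 replicate 2 or either male late library. The female miR-24-2-5p call was lost without either female day 4 library or late replicate 3.

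Between the lines, 3 cluster a arms were higher in female libraries and miR-27b-3p was higher in male ones. At day 0 none of the 8 arms passed, beside 6.64% of all tested miRNAs called higher and 2.09% called lower in the female line, though miR-27b-3p (-0.82, adjusted p = 0.109) and miR-27b-5p (-1.68, 0.0729) did not overlap between lines, nor did miR-24-1-5p and miR-24-2-5p. Without overlap, 1 arm was thus higher and 3 were lower in the female line, beside 19.8% and 16.7% of all tested miRNAs. At an unadjusted p of 0.05 edgeR called 155 miRNAs there, and with the replicate as a block miR-27b-5p passed (-1.57, adjusted p = 0.0354), as it and miR-27b-3p did with DESeq2 (-1.74, 0.0126 and -0.91, 0.0441).

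Averaged over the 5 stages, 3 arms were called higher in the female line, beside 13.9% of all. They were miR-27a-3p (0.80 ± 0.16, adjusted p = 0.00515), miR-24-2-5p (0.85 ± 0.21, adjusted p = 0.0135) and miR-23a-3p (0.73 ± 0.21, adjusted p = 0.0313). miR-27b-3p was called lower (-0.47 ± 0.13, adjusted p = 0.0243), beside 4.55%. The 5 stages of a line came from the same 2 experiments but were fitted as independent libraries, so these SEs and p-values may be too small. The female libraries lay above the male ones at 5 of 5 stages for miR-24-2-5p, while miR-27a-3p overlapped at day 0 and miR-23a-3p at day 0 and days 19 to 23. The miR-23a-3p call was lost without any 1 of 18 libraries (0.40 to 0.72), the exceptions being male day 4 replicate 3 and male late replicate 2, and the miR-24-2-5p call without any 1 of 13 (0.57 to 0.74), the exceptions being both female day 4 libraries, female days 19 to 23 replicate 3, replicate 3 of male days 0 and 4 and both male late libraries. The miR-27a-3p call was lost without female late replicate 3 or male days 19 to 23 replicate 3 (0.58 each), and the miR-27b-3p call without female day 4 replicate 3 or male late replicate 3 (-0.43 and -0.47). Without both day 0 libraries of replicate 3, the miR-23a-3p (0.55, adjusted p = 0.0755) and miR-24-2-5p (0.68, 0.0677) calls were lost, and miR-23b-3p (-0.78, 0.00254) and miR-24-3p (-0.56, 0.0313) were also called lower in the female line, so that 1 arm was higher and 3 were lower. The miR-23a-3p call was also lost with both other scalings, both other filters and DESeq2 (0.57 to 0.67), and the miR-24-2-5p call with total-count scaling (0.69). miR-23b-3p also passed with RLE scaling, a mean of at least 10 CPM and DESeq2 (-0.73 to -0.71).

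The difference between lines in the change from day 0 passed for 0 of the 8 arms, beside 0% of all tested miRNAs at day 4 and 0.369% late in the lower direction. At day 4 edgeR gave 118 miRNAs an unadjusted p under 0.05 and late 113. The largest estimates among the arms were 1.16 ± 0.68 for miR-23a-3p and 1.02 ± 0.51 for miR-27a-3p at day 4, and 1.60 ± 0.76 for miR-27b-5p late (female minus male, log2 ± SE). So a stage at which an arm passed in 1 line and not in the other is not shown to differ between them.

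The miR-24 arms cannot be separated from their antisense partners in these counts. miR-3074-2-3p, listed on the opposite strand over miR-24-2-5p, had 99.1% to 99.9% (median 99.3%) of its count in the 20 libraries. miR-3074-5p had 63.8% to 79.6% of the miR-24-3p count, and miR-3074-1-3p 68.8% to 131% of the miR-24-1-5p count. Among miRNAs whose positions could be matched, 11 pairs overlapped on opposite strands by at least 15 bases and had at least 1000 counts in the larger. Of these 11 pairs, 7 had a smaller count of over 50% of the larger. The pair of miR-24-1-5p and miR-3074-1-3p is not among the 11. Whether the counting used strand is not given in the sources used here, so the values of the miR-24 arms and of miR-3074 cannot be told apart.

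**Figure D5:**
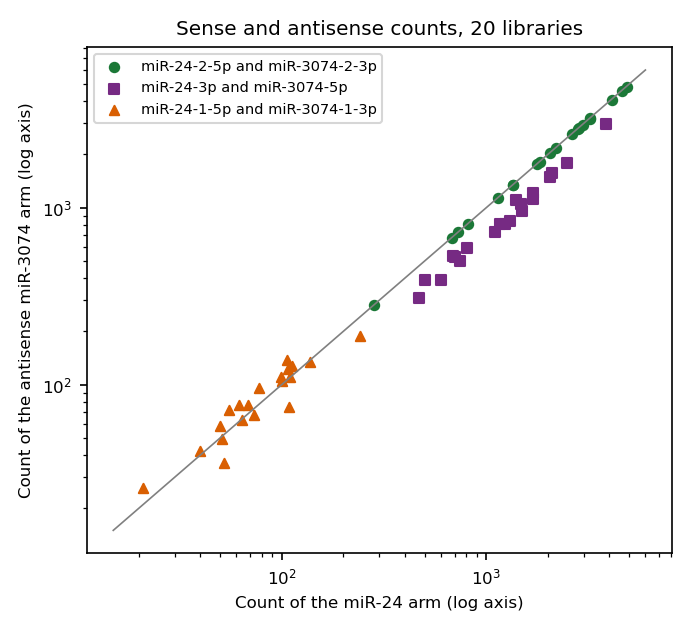
Count of the antisense miR-3074 arm against the count of the miR-24 arm it overlaps, both on log axes, with 1 point for each of 20 libraries and a grey line of equal counts. miR-24-2-5p and miR-3074-2-3p lie on the line, and miR-3074-5p lies below it at 63.8% to 79.6% of miR-24-3p.

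The remaining arms of both clusters, miR-23a-5p, miR-27a-5p and miR-23b-5p, were scarcer than the 3p arms of their hairpins. miR-27a-5p was at 9.80 to 206 CPM, miR-23b-5p at 0.436 to 4.02 CPM and miR-23a-5p at 0 to 1.37 CPM over the 20 libraries. None of the 3 passed against day 0 at any stage in either line. miR-27a-5p was higher in the female line over all stages (log2 difference 1.01 ± 0.32, adjusted p = 0.0421), the same direction as miR-27a-3p.

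Profiles over the 10 group means were compared by the root mean square difference of centred log2 CPM, a description over groups that share lines and day 0 libraries. Within cluster a, miR-23a-3p differed from miR-27a-3p by 0.28 and from miR-24-2-5p by 0.26. miR-27a-3p differed from miR-24-2-5p by 0.39. Within cluster b, miR-23b-3p differed from miR-27b-3p by 0.31 and from miR-27b-5p by 0.60, and miR-27b-3p from miR-27b-5p by 0.38. Across clusters the near-copies differed by 1.29 (miR-23) and 1.16 (miR-27). miR-24-3p was nearer to miR-23b-3p (0.58) and miR-27b-3p (0.59) than to miR-27a-3p or miR-23a-3p (0.80 each), and it differed from miR-27b-5p by 0.85 and from miR-24-2-5p by 0.97. Among the other 325 miRNAs with a mean of at least 50 CPM, those most like miR-27b-3p were miR-301b-3p (0.23), miR-101b-3p (0.27), miR-425-5p (0.27), miR-293-3p (0.28) and miR-191-5p (0.30), where the median of all was 0.97. Those most like miR-27a-3p were miR-486-5p (0.35), miR-3107-5p (0.36), miR-486-3p (0.37), miR-3107-3p (0.37) and miR-3074-2-3p (0.39), beside a median of 0.91. These may not be separate signals. miR-3074-2-3p had 99.1% to 99.9% of the count of member miR-24-2-5p, so its value restates the 0.39 of that arm. Mean levels were near equal for miR-3107-5p and miR-486-5p (94.5 and 92.4 CPM) and for miR-3107-3p and miR-486-3p (58.0 and 60.7 CPM).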

How the data were processed

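Tables of the series were used as the authors deposited them, and no reads were aligned. The deposited raw tables hold counts per miRNA and library, from libraries made to Illumina's instructions per the labels' protocols. The submitters' processing notes name CASAVA 1.8.2, DESeq2 (version not given) and GRCm38/mm10. Which aligner and miRNA annotation were used, whether strand counted and how reads matching several copies were treated is not given in the sources used here. In the authors' normalized table the deposited signal is the count divided by 1 size factor per library, as the ratio of both tables showed. The deposited log2 values are the authors' variance-stabilized table, within 6.14e-05 of log2(normalized count) for the 10 most abundant miRNAs. Both derived tables served for checks only.

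Groups came from the line and day labels, and the experiment name (diff2, diff3) gave the replicate number. Counts of the 1063 miRNAs in both line tables entered the quasi-likelihood F test of edgeR 4.0.16, run in R 4.3.3. A single fit held the 20 libraries of all 10 groups, scaled by TMM, and filterByExpr kept 813 miRNAs and 99.997% of counts (10 residual degrees of freedom, common dispersion 0.171). P-values were adjusted by Benjamini-Hochberg within each contrast at 0.05. The SE is the log2 change over the root of its F. Ratios of 2 arms in a library (pseudocount 0.5) were tested by exact permutation within lines. Replicates of 1 group differed by more than counting noise. Between lines, libraries of the same stage and experiment deviated together (correlation 0.130 to 0.554, all 5 above 0.1), and libraries of 1 line at different stages less so (-0.10 to 0.40, median 0.0767). Early stages of 1 line were not free of it: days 0 and 4 gave 0.28 (female) and 0.40 (male), and days 4 and 10 gave 0.39 and 0.25. For different lines and stages the median was 0.121. The main fit did not model this pairing. The shared experiment name is the source of the pairing used in the block. The fit was repeated with the replicate block, with DESeq2 1.42.0, for each line alone, without each library in turn, with RLE or total-count scaling, unfiltered, and with a filter at a mean of 10 CPM. Leaving out both day 0 libraries of diff3 was added after seeing the data. Where a group kept 1 library, it was assumed to vary like the other groups. The test was tried on simulated data for late female cells with 813 miRNAs, of which 613 were left unchanged. There it recovered 68% of 4-fold and 7% of 2-fold changes, all set in miRNAs more abundant than miR-24-1-5p. The real contrast called more miRNAs, 24.1% higher and 19.4% lower, so these shares are not the power of the tests reported. Changes near 2-fold may still have been missed. All 8 members are named, and for miR-27a-3p and miR-27b-3p also the 5 most similar miRNAs. Members and lists were chosen with earlier results of these data known. Marker miRNAs renamed in newer miRBase releases were matched by their older names (miR-290-5p, miR-292-3p, miR-126, miR-142).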

Additional observations from a re-analysis of the deposited data

How the results depend on the processing

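Each library in a group of 2 carries much of the result, and in the simulated data only 7% of 2-fold changes were recovered. The number of arms called moved by over 1.5 times under some settings. Without both replicate 3 day 0 libraries it was 2 at female day 4, 3 at male day 10 and 4 for female late against day 4. With total-count scaling it was 3 at male day 10, 5 for female late against day 4, 2 between lines at day 0 and 2 between lines over all stages. With a mean of at least 10 CPM it was 4 for female late against day 4 and 2 between lines at day 0. RLE scaling gave 1 between lines at day 0, DESeq2 2 and the replicate block 1. The replicate block also gave 5 for male late against day 4, and left the other counts within 1.5 times.

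Without any 1 library the number of arms called ranged from 0 to 4 at female day 4, 0 to 4 at female day 10, 1 to 2 at female days 19 to 23, 1 to 4 in late female cells and 0 to 3 for female late against day 4. It was 3 to 7 at male day 4, 1 to 5 at male day 10, 2 to 5 at male days 19 to 23, 2 to 5 in late male cells and 0 to 4 for male late against day 4. It was 0 to 3 between lines at day 0 and 1 to 5 over all stages.

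For the ratios, day 0 against days 27 to 30 gave 2.44 for miR-23a-3p over miR-23b-3p, 2.35 for miR-27a-3p over miR-27b-3p and 2.09 for miR-24-2-5p over miR-24-1-5p (each p = 0.0556, exact permutation, the smallest that 36 arrangements allow). Ratios within 1 cluster turned sign under it, miR-23a-3p over miR-27a-3p to 0.12 and miR-23b-3p over miR-27b-3p to 0.023. Without the replicate 3 day 0 libraries they were 0.11 and 0.39, and miR-27b-5p over miR-27b-3p was -0.094. Leaving out each library in turn, they ranged from -0.26 to 0.050 and from -0.55 to 0.10. With the replicate block the a over b ratios kept their values (2.02, 1.91 and 1.65, adjusted p = 0.0064 each, exact permutation). Without the replicate 3 day 0 libraries the a over b ratios were 1.76 (miR-23), 2.04 (miR-27) and 1.65 (miR-24 5p arms). That setting leaves 1 day 0 library per line, so its evidence is weaker.

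The changes that turned sign were all short of the threshold as fitted, and the cause was not tested. Total-count scaling gave miR-27b-5p -0.11 at female day 4, miR-24-3p 0.19 at female day 10 and 0.029 in late female cells, miR-27b-3p 0.42 for female late against day 4, miR-23b-3p 0.24 for male late against day 4, and line differences of the day 4 change of -0.27 (miR-24-1-5p) and -0.23 (miR-27b-3p). A mean of at least 10 CPM gave miR-27b-5p -0.12 at female day 4, miR-24-3p 0.040 at female day 10, miR-27b-3p 0.10 for female late against day 4 and -0.12 for its line difference at day 4. No filter gave miR-24-3p 0.045 at female day 10. The replicate block gave miR-24-3p 0.042 and miR-27b-5p -0.053 at female day 10. Each line fitted alone gave miR-27a-3p -0.024 and miR-27b-5p -0.14 at female day 4 and miR-27b-5p -0.082 at female day 10. Without the replicate 3 day 0 libraries, miR-23a-3p was 0.18 and miR-27b-5p -0.078 at female day 4, and miR-24-1-5p 0.034, miR-24-3p 0.93 and miR-27b-5p -0.025 at female day 10. miR-24-3p was then 0.44 at female days 19 to 23 and 0.51 late, miR-27a-3p -0.089 between lines at day 0 and the line difference of miR-23b-3p at day 4 0.029.

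Leaving out each library in turn, the sign also varied for female day 4 in miR-23a-3p (-0.81 to 0.18), miR-27a-3p (-0.26 to 0.50) and miR-27b-5p (-0.45 to 0.66). It varied for female day 10 in miR-24-1-5p (-0.98 to 0.053), miR-24-3p (-0.63 to 0.93) and miR-27b-5p (-0.36 to 0.20), and for female days 19 to 23 in miR-24-1-5p (-0.13 to 0.65) and miR-24-3p (-1.11 to 0.48). Late female miR-24-3p ranged from -1.003 to 0.61 and miR-27b-3p against day 4 from -0.51 to 0.039. Between lines at day 0 miR-23a-3p ranged from -0.48 to 0.77 and miR-27a-3p from -0.46 to 0.48. Line differences of the day 4 change ranged from -1.05 to 0.95 (miR-23b-3p), -0.34 to 0.53 (miR-24-1-5p), -0.17 to 1.33 (miR-24-2-5p), -0.15 to 1.40 (miR-24-3p) and -0.14 to 0.34 (miR-27b-3p). Those of the late change ranged from -0.11 to 1.13 (miR-23a-3p), -0.21 to 1.78 (miR-23b-3p) and -0.38 to 0.45 (miR-24-2-5p).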

Other observations

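Female day 0 replicates differed more in miR-23b-3p and miR-24-3p than in the other 6 arms. Female replicate 3 held 3.58 times the miR-23b-3p level of replicate 2, and 75 of 813 tested miRNAs differed by more. For miR-24-3p it was 3.35 times, with 85 miRNAs differing by more, while miR-27b-3p, from the hairpin next to Mir23b, was at 1.59 times. In the male line miR-23b-3p was at 2.59 times, miR-23a-3p at 1.92 times, miR-24-3p at 1.45 times and miR-27b-3p at 1.06 times, and miR-27b-5p was lower in replicate 3, at 0.509 times.

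The share of miR-27b-5p in the counts of the Mir27b hairpin is given for each line. Female miR-27b-5p was 0.467% ± 0.114 (SD, n = 2) of the counts of both arms at day 0 and lay above both day 0 libraries in 8 of 8 later libraries, at 0.999% ± 0.229 at day 4 and 0.731% ± 0.0314 late. In the male line it was 0.818% ± 0.402 at day 0, 0.534% ± 0.160 at day 10 and 0.686% ± 0.149 late, with 1 of 8 later libraries above both day 0 libraries and 2 of 8 below. The shares of the lines overlapped at day 0, day 4 and late, and no difference between the lines was tested.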
